A study of Mus musculus with 28 samples.

Results

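The comparison was of non-pathogenic Th17 cells (Th17n) with induced regulatory T cells (iTreg), both from untreated cultures of JMJD3-deficient mice. It used the 3 Th17n and 3 iTreg libraries labelled JMJD3CKO and ctrl, 6 of the 28 libraries in the series, and each Th17n library was paired with the iTreg library of the same animal. All 20891 genes of the deposited tables were read, of which 10985 had enough counts to be tested. Th17n JMJD3CKO cultures, which received 25 ng/ml IL-6 together with 2 ng/ml TGF-beta 1, were set against iTreg JMJD3CKO cultures, grown with TGF-beta 1 at 2 ng/ml and no added IL-6. All were C57BL/6 mice of genotype JMJD3fl/flCD4cre (KO below), in which Cre under the Cd4 promoter recombines the floxed Kdm6b gene in T cells, and every library of this comparison carries that genotype; the deletion itself was not checked in these data. The same comparison was read in KO cultures kept with 100 µM DFMO (3 animals, the same ones) and in untreated wild-type (WT) cultures (4 animals). In every group, sorted naive CD4+ cells from spleen were activated on plates with anti-CD3 and anti-CD28, each at 1 µg/ml, for 68 h. Cultures were sorted only for live cells, so each library is a whole culture, including cells that did not take the intended fate.

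Naive CD4 T cells given TGF-beta alone tend to turn on Foxp3, the defining transcription factor of regulatory T cells. With IL-6 added, STAT3 is activated and the cells make IL-17. JMJD3 (Kdm6b) removes methyl groups from lysine 27 of histone H3, a mark that keeps lineage genes silent. DFMO blocks ornithine decarboxylase (Odc1), the enzyme that starts polyamine synthesis. The series was built around JMJD3 and polyamines in Th17 cells.

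Levels below are in CPM, the estimated count scaled to a common library size, and are compared between cultures, not between genes. Fold changes are Th17n over iTreg on the log2 scale with standard errors, so a positive value is higher in Th17n. A gene is called at a Benjamini-Hochberg adjusted p under 0.05 in an edgeR quasi-likelihood fit with the animal as a block. Total estimated counts were 2226914 to 4143568 in the Th17n libraries and 2312481 to 2911716 in the iTreg libraries. On principal components of the 6 libraries the first axis held 71.3% of the variance and parted Th17n from iTreg. The iTreg library of animal 3 stood apart on the second axis, which held 8.6%. Results without it are given for some genes and lists, not for all that it changed. For example, without it the Tfh list below had 4 genes higher in Th17n and the interferon-stimulated list had 11 lower. Replicates were not copies of each other, with a chi-square per gene of 2.88 to 9.68 and correlations of log2 CPM from 0.971 to 0.979.

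T cell markers were present in all 6 libraries and summed to 4348 to 4532 CPM in Th17n and 3361 to 3812 CPM in iTreg. Of 11 myeloid markers in the tables, 4 had no count in any of the 6 libraries, and the list summed to 15.5 to 17.9 CPM in Th17n and 3.29 to 8.7 CPM in iTreg, most of it from Cd68. NK markers summed to 2.02 to 4.58 CPM in Th17n and 0 to 1.23 CPM in iTreg, with 3 of 7 at 0 throughout. Dendritic cell markers ran the other way, at 3.53 to 5.5 CPM in Th17n and 14.1 to 18.1 CPM in iTreg, led by Zbtb46 at 1.38 to 1.76 CPM in Th17n and 11.7 to 15.6 CPM in iTreg. B cell markers summed to 33.4 to 38.6 CPM in Th17n and 18.5 to 23.03 CPM in iTreg. Ebf1 made up most of that sum in Th17n, at 25.9 to 32.3 CPM against 0.669 to 2.47 CPM in iTreg, while Cd79b ran the other way, at 1.83 to 3.53 CPM in Th17n and 9.46 to 13.4 CPM in iTreg, and Pax5 stayed under 1 CPM in both. Of the 2 CD8 T cell markers, Cd8b1 read 21.5 to 25.9 CPM in Th17n and 18.1 to 24.3 CPM in iTreg, and Cd8a was under 1 CPM in every library. Red cell markers summed to at most 1.76 CPM in Th17n and 3.68 CPM in iTreg, and the 2 gamma delta T cell markers found in the tables to at most 0.398 CPM in Th17n and 0 CPM in iTreg. The part of such cells in the results was not tested. In such bulk cultures fewer cells of a type and less RNA per cell cannot be told apart.

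Kdm6b, the targeted gene, was still read in every KO library. It stood at 30.3, 28.6 and 43.3 CPM in KO Th17n and at 31.1, 33.3 and 29.1 CPM in KO iTreg. The cultures overlapped, and the difference of 0.13 ± 0.17 (SE) did not pass the test (edgeR adjusted p = 0.577). Against WT of the same culture, KO Th17n was lower by a log2 CPM difference of -0.45 (exact two-sided permutation test over 35 splits, p = 0.171) and KO iTreg by -0.46 (p = 0.0286, the smallest these splits allow, and 0.0571 after adjustment over the 2 cultures). Gene-level counts do not resolve the floxed exons, so remaining reads say nothing of the protein. Kdm6a, the other H3K27 demethylase of this family, read 26.1, 21.9 and 20.4 CPM in KO Th17n and 34.03, 31.7 and 26.1 CPM in KO iTreg. Its difference of -0.43 ± 0.19 missed the threshold (edgeR adjusted p = 0.0702) but passed without the iTreg library of animal 3 (-0.57, adjusted p = 0.0448).

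A large share of tested genes differed between the cultures. Th17n was higher at 2116 genes (19.3% of those tested) and lower at 2144 (19.5%), together 38.8%. Each list count below is to be read beside these shares. Of the called genes, 880 were at least 2-fold higher in Th17n and 621 at least 2-fold lower, while 344 were at least 4-fold higher and 222 at least 4-fold lower. The direction was the same in all 3 animals for 4183 of the 4260 called genes. These genes were called on the same values, so this is a description and not separate support. The 3 Th17n values lay wholly above or below the 3 iTreg values at 3975 called genes, and at 47% of all tested genes. The median change over all tested genes was -0.02. Without the iTreg library of animal 3, 1686 genes were higher and 1979 lower.

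Il17a, Il17f and Il21 were read in Th17n and hardly or not at all in iTreg. Il17a (GRCm38 chromosome 1, 20730905 to 20734496, plus strand) stood at 58.7, 105 and 90.2 CPM in the Th17n libraries of animals 1 to 3, and no read was counted in any iTreg library. With 751 counts against 0, Th17n was at least 236-fold higher, taking 3 counts over the group as the floor (edgeR adjusted p = 6.00e-10). Il17f, its neighbour and paralog (chromosome 1, 20777146 to 20790617, minus strand), read 711, 984 and 872 CPM in Th17n and 1.09, 0 and 1 CPM in iTreg. Its change was 10.11 ± 0.40 (adjusted p = 4.22e-17). The cultures were far apart at both genes in every animal. Il21, a cytokine that acts back on Th17 cells, had 210.0, 225 and 179.9 CPM in Th17n and no count in iTreg, at least 547-fold higher (adjusted p = 7.55e-17).

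The window from 250 bases before to 50 bases after the start site, from RefSeq on GRCm38.p6, is shown for both IL-17 genes and for Foxp3, because these 3 genes separate the cultures and nuclear receptors and STAT factors are textbook regulators of this choice. Capitals mark a nuclear receptor core site (AGGTCA on either strand) or a STAT motif (TTCNNNGAA, its own reverse complement). The first is Il17a, chr1:20730655-20730954 (+), the second Il17f, chr1:20784221-20784520 (-), and the third Foxp3, chrX:7580233-7580532 (+). For Il17f and Foxp3 these RefSeq windows lie inside the gene spans printed in this report, which are from GENCODE, so the 2 sources place the start differently.
Il17a promoter: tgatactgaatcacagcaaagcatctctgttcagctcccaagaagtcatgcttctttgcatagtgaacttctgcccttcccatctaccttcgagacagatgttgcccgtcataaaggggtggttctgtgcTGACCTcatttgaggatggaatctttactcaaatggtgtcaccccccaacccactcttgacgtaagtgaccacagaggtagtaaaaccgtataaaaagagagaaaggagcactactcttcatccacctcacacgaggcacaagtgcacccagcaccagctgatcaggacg
Il17f promoter: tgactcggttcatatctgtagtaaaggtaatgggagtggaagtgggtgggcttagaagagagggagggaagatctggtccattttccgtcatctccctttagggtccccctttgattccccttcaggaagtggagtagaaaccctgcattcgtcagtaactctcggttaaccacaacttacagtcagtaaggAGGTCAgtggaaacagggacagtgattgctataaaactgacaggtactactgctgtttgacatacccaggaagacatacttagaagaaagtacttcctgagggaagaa
Foxp3 promoter: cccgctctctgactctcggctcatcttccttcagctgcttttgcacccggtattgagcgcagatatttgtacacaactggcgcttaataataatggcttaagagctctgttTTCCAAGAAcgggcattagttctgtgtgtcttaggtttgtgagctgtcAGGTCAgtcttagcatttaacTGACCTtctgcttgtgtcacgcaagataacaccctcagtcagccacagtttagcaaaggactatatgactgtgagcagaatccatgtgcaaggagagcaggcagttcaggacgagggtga
Il17a held 1 AGGTCA site, beginning 120 bases before the start site, and Il17f held 1, beginning 58 bases before it. The Foxp3 window held 2 AGGTCA sites and 1 STAT motif, and the other annotated Foxp3 start, chrX:7579426-7579725, held neither. An AGGTCA site was present in 14.5% of the promoters of genes higher in Th17n, in 13.4% of those of genes lower in Th17n, in 12.4% of those of all tested genes and in 16.3% of all promoters in the table. The STAT motif was in 7%, 8.93%, 7.2% and 8.3% of the same sets. The core letters CAGAC (SMAD box) were in 48.4%, 47.4%, 47% and 49.6%, and GGAAA (NFAT core) in 57.1%, 61.6%, 59.2% and 61.3%, on either strand. Matches of letters are a description of the sequence and not of binding.

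Of 11 tested Th17 cytokines and chemokines, 9 were higher in Th17n and 1 was lower, with a median of 6.04, or 4.89 with the 3 genes that had no iTreg count set at their lower bound. Il24, a cytokine of the IL-10 family, read 289, 321 and 354 CPM in Th17n and 1.81, 1.65 and 3.68 CPM in iTreg (7.03 ± 0.33). Lif, which signals through the receptor chain shared with IL-6, was 4.23-fold higher (2.08 ± 0.15). Ccl20, the ligand of CCR6, was 7.57-fold higher, at 9.63, 20.3 and 10.8 CPM in Th17n and 1.45, 2.06 and 1.67 CPM in iTreg. Tnfsf11 (RANKL) was the member that fell, at 3.21, 4.38 and 6.55 CPM in Th17n against 38.01, 67.9 and 24.1 CPM in iTreg (-3.04 ± 0.53, edgeR adjusted p = 4.54e-05).

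Th17 transcription factors rose together: 11 of 14 tested members were higher in Th17n and 0 lower, with a median of 1.84. Rora, a nuclear receptor, was 3.88-fold higher (1.96 ± 0.17). Maf stood at 39.4, 44.2 and 44.9 CPM in Th17n and 1.81, 1.65 and 0.669 CPM in iTreg (4.96 ± 0.32). Ahr, the aryl hydrocarbon receptor, read 22.9, 17.5 and 14.9 CPM in Th17n and 1.09, 1.23 and 2.34 CPM in iTreg (3.49 ± 0.42). Stat3 itself was 3.02-fold higher, at 961, 928 and 969 CPM in Th17n and 351, 297 and 302 CPM in iTreg (1.59 ± 0.09, adjusted p = 2.70e-14). Irf4, which acts with BATF at Th17 genes, was 5-fold higher, Hif1a 3.96-fold and the AP-1 member Fosl2 8.33-fold. None of these factors overlapped between the cultures.

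**Figure D1:**
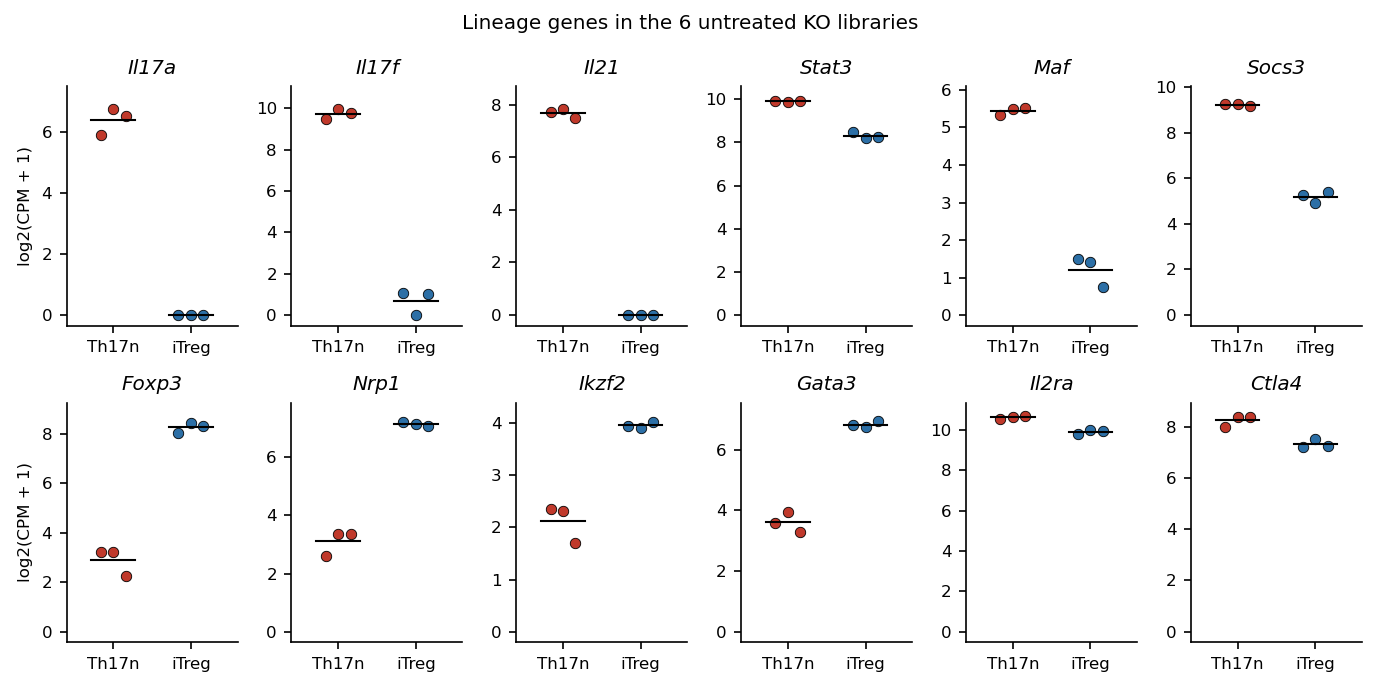
Log2(CPM + 1) of 12 lineage genes in the 3 Th17n (red) and 3 iTreg (blue) untreated KO libraries, with a line at the mean of each group; the vertical scale differs by gene. The Th17n libraries lie above all iTreg libraries for Il17a, Il17f, Il21, Stat3, Maf, Socs3, Il2ra and Ctla4 and below them for Foxp3, Nrp1, Ikzf2 and Gata3.

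Among 8 tested Th17 receptors, 4 were higher in Th17n and 2 lower. Il23r, through which IL-23 maintains Th17 cells, read 6.88, 6.76 and 9.33 CPM in Th17n and 0, 0.823 and 0 CPM in iTreg. The ratio of summed counts, 69 against 2, was 32.6 (95% counting interval 8.69 to 274; adjusted p = 9.36e-06). Its partner chain Il12rb1 was 2.91-fold higher (1.54 ± 0.13) and Il21r 2.36-fold (1.24 ± 0.13). Il18r1 was lower, at 9.17, 10.7 and 8.06 CPM in Th17n and 26.4, 19.7 and 23.8 CPM in iTreg (-1.34 ± 0.33). Ccr6, often used as a Th17 surface marker, was also lower, at 25.2, 42.2 and 42.8 CPM in Th17n and 51.04, 55.5 and 58.2 CPM in iTreg. That call (-0.59 ± 0.22, edgeR adjusted p = 0.0387) was lost without the block, on the TPM scale and when any of 4 libraries was left out.

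The regulatory T cell genes did not move together. Of 18 tested, 5 were lower in Th17n and 7 higher. Foxp3 (chromosome X, 7573644 to 7595245, plus strand) read 8.25, 8.36 and 3.78 CPM in Th17n against 259, 343 and 314 CPM in iTreg. That was 47.9-fold lower (-5.58 ± 0.25, adjusted p = 8.01e-16). Nrp1, the semaphorin co-receptor neuropilin 1, was 17.2-fold lower, at 5.04, 9.15 and 9.33 CPM in Th17n and 147, 141 and 135 CPM in iTreg (-4.11 ± 0.25). Ikzf2 (Helios) stood at 4.13, 3.98 and 2.27 CPM in Th17n and 14.5, 13.98 and 15.4 CPM in iTreg (-2.16 ± 0.34). These genes did not overlap between the cultures. Il2ra (CD25), the high-affinity chain of the IL-2 receptor, went the other way, at 1513, 1612 and 1632 CPM in Th17n and 902, 1004 and 1000.1 CPM in iTreg (0.71 ± 0.06, adjusted p = 5.58e-10). Ctla4, an inhibitory receptor on activated and regulatory cells, read 259, 336 and 335 CPM in Th17n and 150.2, 186 and 151 CPM in iTreg (0.93 ± 0.11). Entpd1 (CD39), which degrades extracellular ATP, was 3.99-fold higher (2.00 ± 0.22), a call lost on the TPM scale.

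Genes read out by IL-6 and STAT3 were mostly higher in the culture that received IL-6: 8 of 15 tested rose and 2 fell (4 without the Th17n library of animal 2), with a median of 0.80. Socs3, the feedback inhibitor of this receptor, read 612, 611 and 577 CPM in Th17n and 37.3, 29.6 and 41.2 CPM in iTreg (4.05 ± 0.12, adjusted p = 1.34e-19). Timp1, a metalloproteinase inhibitor induced by STAT3, stood at 1469, 1276 and 1516 CPM in Th17n and 1.45, 1.23 and 1.34 CPM in iTreg (10.02 ± 0.33). Il4ra was 3.48-fold higher (1.80 ± 0.10). The 2 that fell were interferon-inducible membrane proteins, Ifitm2 (-0.76 ± 0.13) and Ifitm3 (-2.06 ± 0.54).

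Both cultures received TGF-beta. Of 17 tested genes of its response, 6 were higher in Th17n and 1 was lower, with a median of 0.59. Of all tested genes, 19.3% were higher and 19.5% lower, together 38.8%. Tgfb3, which encodes a TGF-beta ligand, read 155, 166 and 165 CPM in Th17n and 0.724, 2.47 and 3.01 CPM in iTreg (6.27 ± 0.31). Smad3, the signal transducer, was 4.89-fold higher (2.29 ± 0.16) and Runx3 3.65-fold. Tgfbr1, a receptor chain, was the member that fell, at 6.42, 5.57 and 8.57 CPM in Th17n and 20.3, 21.4 and 17.1 CPM in iTreg (-1.47 ± 0.28).

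Among genes of the IL-2 and STAT5 response, 8 of 15 were higher in Th17n and 3 lower. Il2rb was 2.12-fold higher (1.09 ± 0.08). The 3 that fell were Socs2, a feedback inhibitor, at 74.7, 56.5 and 59.5 CPM in Th17n and 309, 307 and 302 CPM in iTreg (-2.28 ± 0.14), the early activation antigen Cd69 (-1.11 ± 0.14), and Phlda1, with 3 counts in Th17n against 62 in iTreg. The Phlda1 ratio of iTreg over Th17n was 21.9 (95% counting interval 7.15 to 109). Immediate early genes moved both ways, 6 of 19 up and 6 down: Nr4a3 and Nr4a1, induced by T cell receptor signals, fell by 2.87 ± 0.18 and 1.65 ± 0.15 on the log2 scale, while Ier3 and Junb rose by 2.47 ± 0.13 and 0.80 ± 0.09.

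Other helper programmes did not move as blocks. Of 15 Th1 genes, 3 were higher in Th17n and 5 lower, counts of 3 higher and 2 to 4 lower when single libraries were left out, with 2 lower without the iTreg library of animal 1. Il12rb2, the IL-12 receptor chain, was 9.07-fold higher (3.18 ± 0.15) and Runx3 and Il27ra rose too, while Nkg7, a granule protein, read 4.58, 1.99 and 6.55 CPM in Th17n and 76.7, 75.3 and 71.9 CPM in iTreg (-4.00 ± 0.29). Gata3, the Th2 master factor that is also used by regulatory cells, stood at 11.00, 14.3 and 8.82 CPM in Th17n against 112, 106 and 123 CPM in iTreg (-3.35 ± 0.18, adjusted p = 2.81e-14). It was 1 of 2 of the 5 tested Th2 genes that fell, with Ccr8 (-1.24 ± 0.17), and 3 rose, among them Nfil3 (2.17 ± 0.16). Of 14 Tfh genes, 6 were higher and 5 lower. Cd200 and Il21 were among the higher ones, and Slamf6, a SLAM family receptor, read 6.42, 4.77 and 6.8 CPM in Th17n and 79.6, 71.98 and 78.96 CPM in iTreg (-3.68 ± 0.26). Tox, a nuclear factor, fell by 2.92 ± 0.22.

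In the list of naive and memory genes 7 of 13 were higher in Th17n and 3 lower. Satb1, a chromatin organiser, read 541, 569 and 490.2 CPM in Th17n and 54.3, 62.1 and 56.5 CPM in iTreg (3.21 ± 0.11). Bach2, a repressor that holds effector genes down, was 3.22-fold higher (1.69 ± 0.09). Among the 3 that fell were Dapl1 (-3.30 ± 0.39) and the transcription factor Tcf7 (-0.37 ± 0.11). The call of Tcf7 was lost without either library of animal 3. Dapl1 changed by -4.03 without the Th17n library of animal 3. The list had 6 calls in all on the TPM scale, and 6 without the Th17n library of animal 3.

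Homing receptors and integrins were higher in Th17n at 6 of 15 genes and lower at 1. Gpr15, a receptor for homing to the large intestine, had 69 counts in Th17n against 1 in iTreg, a ratio of 65.2 (95% counting interval 11.3 to 2611). Gpr18 was 4.94-fold higher (2.30 ± 0.17). Itga4, the integrin chain used for entry into brain and gut, was the 1 that fell, at 11.00, 7.16 and 10.3 CPM in Th17n and 49.6, 52.6 and 38.1 CPM in iTreg (-2.27 ± 0.21). Of 12 inhibitory receptors and their ligands, 5 rose and 4 fell. Procr had 237 counts in Th17n against 1 in iTreg (ratio 224, 95% counting interval 39.8 to 8879), and Pdpn, which with Procr belongs to an IL-27 induced co-inhibitory module in mouse T cells, read 24.3, 28.2 and 30.5 CPM in Th17n and 0.362, 2.06 and 0 CPM in iTreg (5.18 ± 0.51). That change was 7.05 without the iTreg library of animal 2 and 4.51 without that of animal 3.

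**Figure D2:**
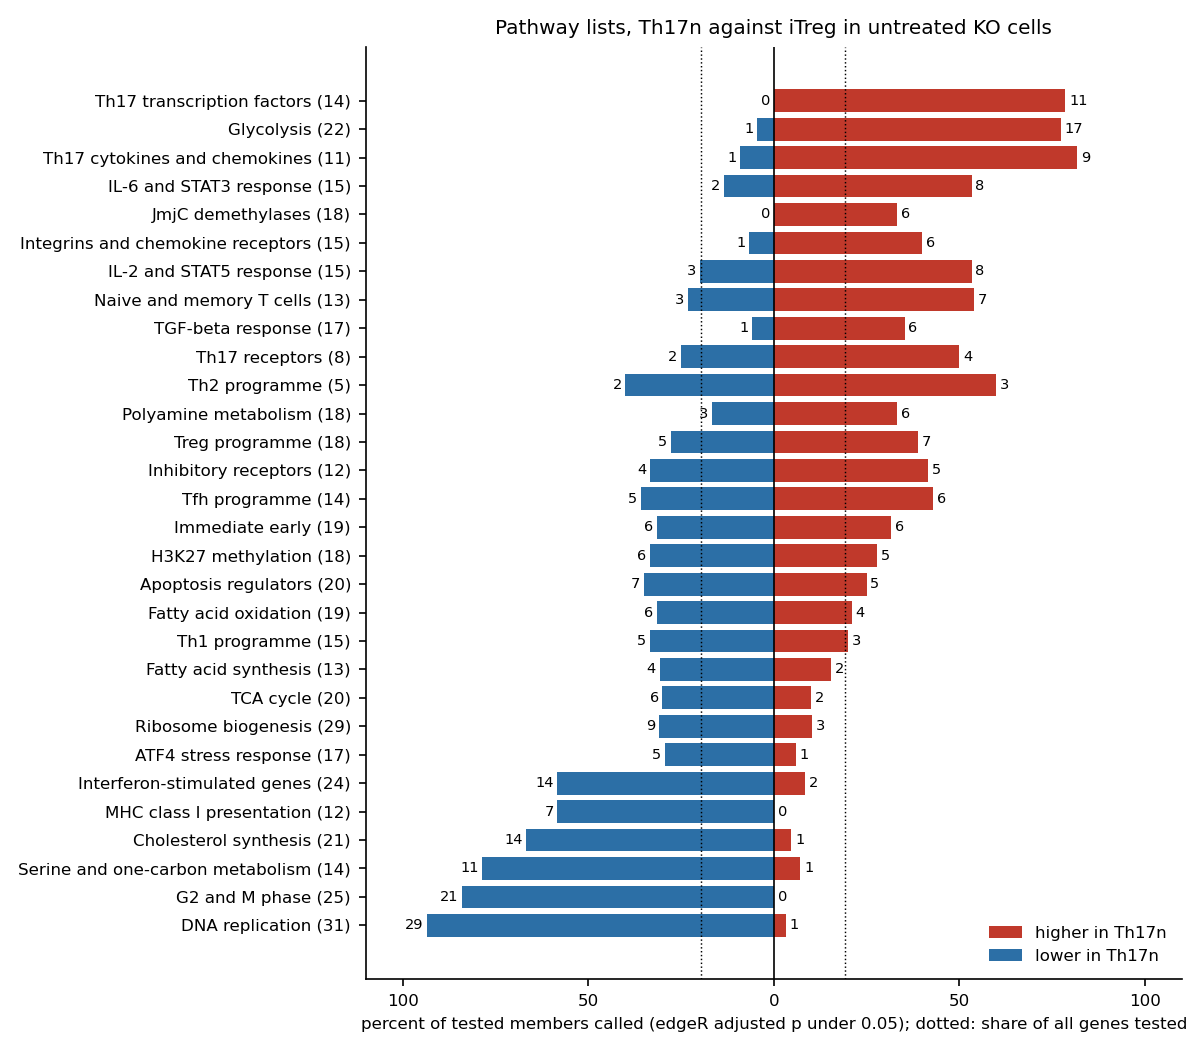
Share of the tested members of each of 30 pathway lists (number tested in brackets) that were higher (red, right) or lower (blue, left) in Th17n than in iTreg in untreated KO cells, with the number of genes at each bar; dotted lines mark 19.3% and 19.5%, the shares of all tested genes. Th17 factors, Th17 cytokines and glycolysis lie farthest to the higher side, and DNA replication and G2 and M phase to the lower side.

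The largest changes, named by size among genes with at least 10 CPM in the higher culture, include several that are not classical lineage genes. On the higher side were the Ly6 family members Ly6g (110.0, 129.7 and 72.8 CPM in Th17n, no count in iTreg, at least 269-fold) and Ly6c1 (584 counts against 1, ratio 552, 95% counting interval 98.6 to 21825). Members of this family are alike in sequence, so reads may be divided among them. Inhba, which encodes the activin A subunit, read 30.3, 32.2 and 44.1 CPM in Th17n and had no count in iTreg, at least 101-fold higher. Also without a count in iTreg were Gdpd2 (at least 73.05-fold higher), the serpin Serpinb5 (67.7-fold), the PI3K gamma adaptor Pik3r6 (31.5-fold) and the adenylyl cyclase Adcy4 (30.5-fold), each a lower bound on the same floor. Enpp2 (autotaxin) had 783 counts against 2, a ratio of 369.8 (95% counting interval 102 to 3059). In all, 9 genes reached 10 CPM in Th17n with no count in iTreg, the ninth being Prss46, which was named after its value was seen, and 0 genes did so the other way. These numbers turn on single reads: Mndal and Ccl3 missed the rule with 1 count each in Th17n, and Ly6c1 with 1 in iTreg. The deepest of the libraries compared was also a Th17n library.

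On the lower side Lad1, an anchoring filament protein of epithelia, read 0.458, 1.99 and 0.252 CPM in Th17n and 149.9, 149 and 162 CPM in iTreg (-7.52 ± 0.30, adjusted p = 5.07e-17). Fibulin 2 (Fbln2), an extracellular matrix protein, had 2 counts in Th17n against 272 in iTreg, a ratio of iTreg over Th17n of 144 (95% counting interval 39.5 to 1195). The DNA-sensing family of Mndal and Ifi203 fell as well: Mndal had 1 count against 276, and Ifi203 read 1.83, 0.796 and 0.756 CPM in Th17n and 38.01, 70.3 and 33.1 CPM in iTreg (-5.37 ± 0.43). These genes and Serpina3g (-5.07 ± 0.86) sit in families of near-identical copies, so their split of reads is uncertain. Penk, the enkephalin precursor, stood at 1.38, 0.398 and 0.504 CPM in Th17n against 40.5, 27.1 and 24.8 CPM in iTreg (-5.35 ± 0.62). Ccl3, a chemokine of inflammatory cells, had 1 count against 107, and Pla2g4f and Akr1c18 had 2 each against 103 and 99. Dnah7a (-5.85 ± 0.52) and the slow skeletal troponin Tnni1 (-5.03 ± 0.51) completed the 12 with Foxp3. With so few Th17n reads 1 library set some sizes: Lad1 changed by -8.82 without the Th17n library of animal 2 and by -6.83 without that of animal 3, Dnah7a by -5.15 without the Th17n library of animal 2 and by -10.19 without that of animal 3, and Serpina3g by -5.66 without the iTreg library of animal 3.

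Genes of proteins with a JmjC domain, among them histone demethylases, were higher in Th17n at 6 of 18 tested genes and lower at 0. Their median was 0.28, and 38.8% of all tested genes were called. Jmjd6 was 2.19-fold higher, at 227, 236 and 220.3 CPM in Th17n and 110.1, 92.5 and 108 CPM in iTreg (1.13 ± 0.11). Kdm5b, which acts on H3K4, rose by 0.55 ± 0.11, and Kdm4b and Kdm4c, which act on H3K9, by 0.68 ± 0.18 and 0.61 ± 0.17. On the TPM scale the calls of Kdm4b (also lost without the Th17n library of animal 3) and Kdm4c were lost, Kdm6a was lower by 0.87 with a pseudocount of 1 and passed, and the list stood at 3 higher and 1 lower. Genes that write or read H3K27 methylation divided 5 up and 6 down among 18, with 3 up on the TPM scale and without the Th17n library of animal 1 or either library of animal 3. Ezh2, the methyltransferase, was lower, at 65.1, 64.1 and 82.4 CPM in Th17n and 121, 123 and 113 CPM in iTreg (-0.75 ± 0.11), as was Cbx2 of the repressive complex that binds the mark (-1.75 ± 0.28). The accessory subunits Aebp2 and Jarid2 were 4.01-fold and 1.95-fold higher.

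Polyamine genes moved in both directions, 6 of 18 up and 3 down, beside 19.3% of all tested genes up and 19.5% down. Without the Th17n or the iTreg library of animal 3 the list stood at 4 up and 5 down. Odc1, the target of DFMO, read 113, 111 and 135 CPM in Th17n and 72.04, 99.5 and 90.3 CPM in iTreg. The difference of 0.46 ± 0.16 passed (edgeR adjusted p = 0.0256) but was lost when any of 4 of the 6 libraries was left out. Smox, which oxidises spermine, was 6.14-fold higher, at 271, 328 and 269 CPM in Th17n and 49.96, 55.9 and 36.5 CPM in iTreg (2.62 ± 0.13, adjusted p = 8.09e-15). Eif5a, the translation factor that carries the spermidine-derived residue hypusine, rose by 0.66 ± 0.06. Lower were Paox, the other polyamine oxidase (-0.99 ± 0.22), Slc7a1, an arginine transporter (-0.90 ± 0.11), and Mtap (-0.30 ± 0.12), whose cultures overlapped and whose call was lost in DESeq2, without the block, without the filter on low counts, in a fit of these groups alone and without 5 of the libraries in turn.

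Glycolysis was the most one-sided metabolic list on the higher side: 17 of 22 genes rose and 1 fell, with a median of 0.50. Pgam1 read 2139, 2032 and 2164 CPM in Th17n and 1091, 1122 and 941 CPM in iTreg (1.01 ± 0.08). Gapdh rose by 0.94 ± 0.08, the glucose transporter Slc2a1 by 1.08 ± 0.11 and the lactate exporter Slc16a3 by 1.10 ± 0.10. Eno2, the member that fell (-0.55 ± 0.20, edgeR adjusted p = 0.0336), lost its call in DESeq2, on the TPM scale and when any of 3 libraries was left out. Among 20 genes of the TCA cycle 2 were higher and 6 lower, together near the 38.8% of all tested genes. Suclg1 rose by 0.74 ± 0.08, and Cs, the citrate synthase, by 0.30 ± 0.09 (call lost without the iTreg library of animal 1), while Fh1 (-0.83 ± 0.11), Suclg2 (-0.60 ± 0.11) and Idh2 (-0.50 ± 0.11) fell.

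Cholesterol synthesis genes were mostly lower in Th17n. Of 21 cholesterol synthesis genes 14 fell and 1 rose, with a median of -0.48. Hmgcs1, an early enzyme of the pathway, read 171, 166 and 183 CPM in Th17n and 357, 358 and 329.9 CPM in iTreg. It fell by 1.00 ± 0.11, Dhcr7 by 1.37 ± 0.13 and Idi1 by 1.28 ± 0.17, and their regulator Srebf2 by 0.64 ± 0.09. Fdft1 was the member that rose (0.29 ± 0.10, edgeR adjusted p = 0.02), a call lost on the TPM scale and when any of 3 libraries was left out. In fatty acid synthesis 2 of 13 rose, Acly (0.87 ± 0.13) and Elovl6 (0.53 ± 0.14; call lost on the TPM scale), and 4 fell, among them the desaturases Scd1 (-1.04 ± 0.12), Fads1 and Fads2. Fatty acid oxidation divided 4 up and 6 down among 19, with the electron carriers Etfb (-1.15 ± 0.10) and Etfa (-0.50 ± 0.10) lower and Eci2 (0.59 ± 0.10) higher.

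Serine and one-carbon genes fell: 11 of 14 were lower and 1 higher, with a median of -0.61. Phgdh, the entry enzyme of serine synthesis, stood at 473, 548 and 498 CPM in Th17n against 1392, 1365 and 1579.6 CPM in iTreg (-1.51 ± 0.10, adjusted p = 2.05e-12). Mthfd2, the mitochondrial folate enzyme, read 185, 185 and 183 CPM in Th17n and 344, 331 and 338 CPM in iTreg (-0.87 ± 0.08). Mthfd1l rose (0.58 ± 0.12). In the ATF4 stress response 5 of 17 genes were lower and 1 higher, 6 calls in all, beside 38.8% of all tested genes. Nupr1 (-1.56 ± 0.19), Chac1 (-1.23 ± 0.18), Asns (-0.61 ± 0.10) and Cth (-0.91 ± 0.21) fell, and Ddit4, an inhibitor of mTORC1 signalling, rose (0.58 ± 0.15).

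Proliferation genes were lower in Th17n. Of 31 DNA replication genes 29 fell and 1 rose, with a median of -0.78. Tyms, the thymidylate synthase, read 48.6, 50.5 and 45.4 CPM in Th17n and 125, 139.8 and 148 CPM in iTreg (-1.53 ± 0.11), Lig1 fell by 1.00 ± 0.09 and the ribonucleotide reductase genes Rrm2 and Rrm1 by 1.00 ± 0.10 and 0.81 ± 0.07. Rfc3 was the member that rose (0.50 ± 0.11). Of 25 genes of the G2 and M phases 21 fell and 0 rose, with a median of -0.53. Mki67, the proliferation antigen, read 113, 118 and 109 CPM in Th17n and 188, 177 and 158 CPM in iTreg (-0.62 ± 0.11), and Bub1b and Kif20a fell by 0.81 ± 0.12 and 0.83 ± 0.14. Ribosome biogenesis was mixed, with 3 of 29 higher (Rrp1b, Rrp12 and, lost in most other settings, Wdr43) and 9 lower, among them Nop10 (-0.63 ± 0.09) and Dkc1 (-0.60 ± 0.09). Together these calls were near the 38.8% of all tested genes.

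Interferon-stimulated genes were lower in Th17n at 14 of 24 tested genes and higher at 2, with a median of -1.53. Irf7, the factor that amplifies the type I response, read 2.75, 1.59 and 5.29 CPM in Th17n and 24.3, 32.9 and 23.8 CPM in iTreg (-2.99 ± 0.57; -3.63 without the Th17n library of animal 3). Ifih1, a sensor of viral RNA, fell by 2.06 ± 0.33, Ifit2 by 2.23 ± 0.37 and the GTPase Gbp7 by 2.74 ± 0.47. Those that rose were Gbp2 (1.70 ± 0.33) and Stat2 (0.42 ± 0.13), the call of the second being lost on the TPM scale and when any of 4 libraries was left out. MHC class I presentation was lower too, with 7 of 12 lower and 0 higher and a median of -0.48. B2m, the light chain, read 682, 690.3 and 937 CPM in Th17n and 1293, 1056 and 1277 CPM in iTreg (-0.65 ± 0.10), and the immunoproteasome subunits Psmb8, Psmb9 and Psmb10 fell by 0.80 ± 0.10, 0.82 ± 0.15 and 0.95 ± 0.19. Among 20 apoptosis regulators 5 rose and 7 fell. Tnfsf10 (TRAIL, -2.90 ± 0.40) and Bcl2a1b (-1.88 ± 0.19) were lower, and Birc3 (0.75 ± 0.10) was higher. Bcl2a1b has near-identical copies.

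The same contrast in untreated WT cells called 2339 genes higher in Th17n (21.3%) and 2367 lower (21.5%), together 42.8% of those tested. Of the genes called in KO, 3374 were called in WT, which is 79.2% of the KO calls and 71.7% of the WT calls, and 3373 of them had the same direction. The 1 that did not was Wdr43, higher in KO Th17n by 0.25 ± 0.10 and lower in WT Th17n by 0.24, with a KO minus WT difference that missed the threshold (edgeR adjusted p = 0.246). Foxp3 changed by -5.58 in KO and -4.83 in WT, Socs3 by 4.05 and 3.54 and Il2ra by 0.71 and 0.86. List counts stood as follows: DNA replication had 29 lower in KO and 28 in WT, glycolysis 17 and 19 higher, and cholesterol synthesis 14 lower in both. Other lists had fewer calls in KO than in WT: ribosome biogenesis had 9 lower in KO and 21 in WT, MHC class I presentation 7 lower in KO and 11 in WT, and the Th1 list 5 lower in KO and 9 in WT. The interferon-stimulated list ran the other way, with 14 lower and 2 higher in KO against 13 and 0 in WT. KO calls rest on 3 animals and WT calls on 4, so these counts are not like for like. The KO minus WT difference was called at 0 genes of the ribosome biogenesis and MHC class I lists and at 2 of the Th1 list. Differences between these counts were not tested.

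**Figure D3:**
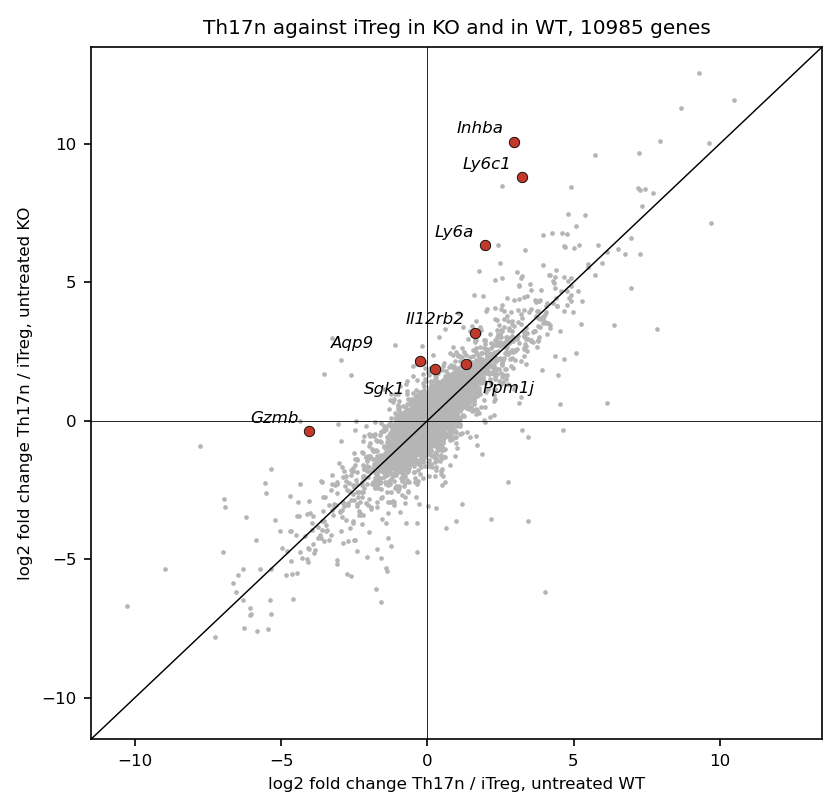
Log2 fold change of Th17n over iTreg for each tested gene in untreated KO cells (vertical axis) against that in untreated WT cells (horizontal axis), with the line of equality; red points are the 8 genes whose KO minus WT difference was called. All 8 lie above the line, and most other genes follow it. Values beyond about 8 on either axis belong to genes with few or no counts in 1 culture and depend on the prior count.

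A test of the difference itself, the Th17n against iTreg change in KO minus that in WT, called 8 genes with a larger value in KO and 0 with a smaller one, 0.0728% of those tested, while 839 genes had an unadjusted p under 0.05. The genes with the smallest adjusted p were Ly6a and Il12rb2. Ly6a (Sca-1), an interferon-inducible surface protein, read 1079, 1318 and 1222 CPM in KO Th17n and 23.5, 7.81 and 13.7 CPM in KO iTreg, against 1231, 1055, 1254 and 1029 CPM in WT Th17n and 487, 185, 502 and 183 CPM in WT iTreg. The difference was 4.37 ± 0.52 (edgeR adjusted p = 3.44e-05). Il12rb2 read 244, 225 and 216 CPM in KO Th17n and 26.8, 25.5 and 23.4 CPM in KO iTreg, against 365, 169, 322 and 156 CPM in WT Th17n and 143, 48.2, 112 and 39.7 CPM in WT iTreg (1.55 ± 0.18, adjusted p = 3.44e-05). For both genes the KO and WT Th17n libraries overlapped, and the KO iTreg libraries lay below all 4 WT iTreg libraries.

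Gzmb, a cytotoxic granule protease, had the same pattern, with a contrast of -4.04 in WT and -0.38 in KO, which did not pass (edgeR adjusted p = 0.599). Its levels were 6.88, 8.75 and 9.58 CPM in KO Th17n and 9.05, 15.6 and 9.7 CPM in KO iTreg, against 9.73, 10.8, 13.6 and 7.79 CPM in WT Th17n and 340.1, 68.6, 245 and 112 CPM in WT iTreg. The WT iTreg libraries were high and spread, and the other groups lay close together (difference 3.67 ± 0.62, edgeR adjusted p = 0.00814). Sgk1, a salt-sensing kinase of Th17 cells, read 77.02, 66.4 and 56.7 CPM in KO Th17n and 11.6, 27.97 and 15.7 CPM in KO iTreg, against 54.3 to 67.1 CPM in WT Th17n and 39.2 to 61.5 CPM in WT iTreg (1.62 ± 0.24, adjusted p = 0.00111). Its contrast was seen in KO (1.87) and did not pass in WT (0.25). Inhba read 30.3 to 44.1 CPM in KO Th17n, above the 25.5 to 29.6 CPM of WT Th17n, and Ly6c1 59.7 to 80.8 CPM in KO Th17n and 52.8 to 80.4 CPM in WT Th17n, which overlapped. Inhba had no count in KO iTreg and 1.58 to 6.05 CPM in WT iTreg, and Ly6c1 had 1 count in KO iTreg and 1.78 to 15.00 CPM in WT iTreg, so their fitted differences of 7.13 and 5.58 depend on the prior count, and that of Ly6c1 was 7.77 without the iTreg library of KO animal 1.

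The remaining 2 were smaller or lower in level. Aqp9, a glycerol channel, read 9.63, 11.9 and 10.1 CPM in KO Th17n and 2.17, 2.88 and 2.01 CPM in KO iTreg, against 4.33 to 5.11 CPM in WT Th17n and 4.74 to 7.1 CPM in WT iTreg (2.40 ± 0.48, edgeR adjusted p = 0.0444). Here the KO Th17n libraries were above WT Th17n and the KO iTreg libraries below WT iTreg. Ppm1j, a protein phosphatase, differed by 0.72 ± 0.14 (adjusted p = 0.03). Ppm1j fell outside the naming rule and was named after its value was seen. Il12rb2 was named by the rule for lists, as a Th1 gene, and not by the size of its KO minus WT difference. The count of 8 was not stable: it was 3 without the replicate block or without the iTreg library of KO animal 1 or KO animal 3, and 5 without the Th17n or the iTreg library of WT animal 3. It was 14 in DESeq2 (12 with a larger value in KO and 2 with a smaller one) and 97 without the filter on low counts, where 50 had a larger value in KO and 47 a smaller one, so the split of 8 to 0 did not hold in these settings. Of the 8, only Ly6a stayed called in every setting tried. The calls of Aqp9 and Ppm1j were each lost when most of the single libraries were left out in turn.

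**Figure D4:**
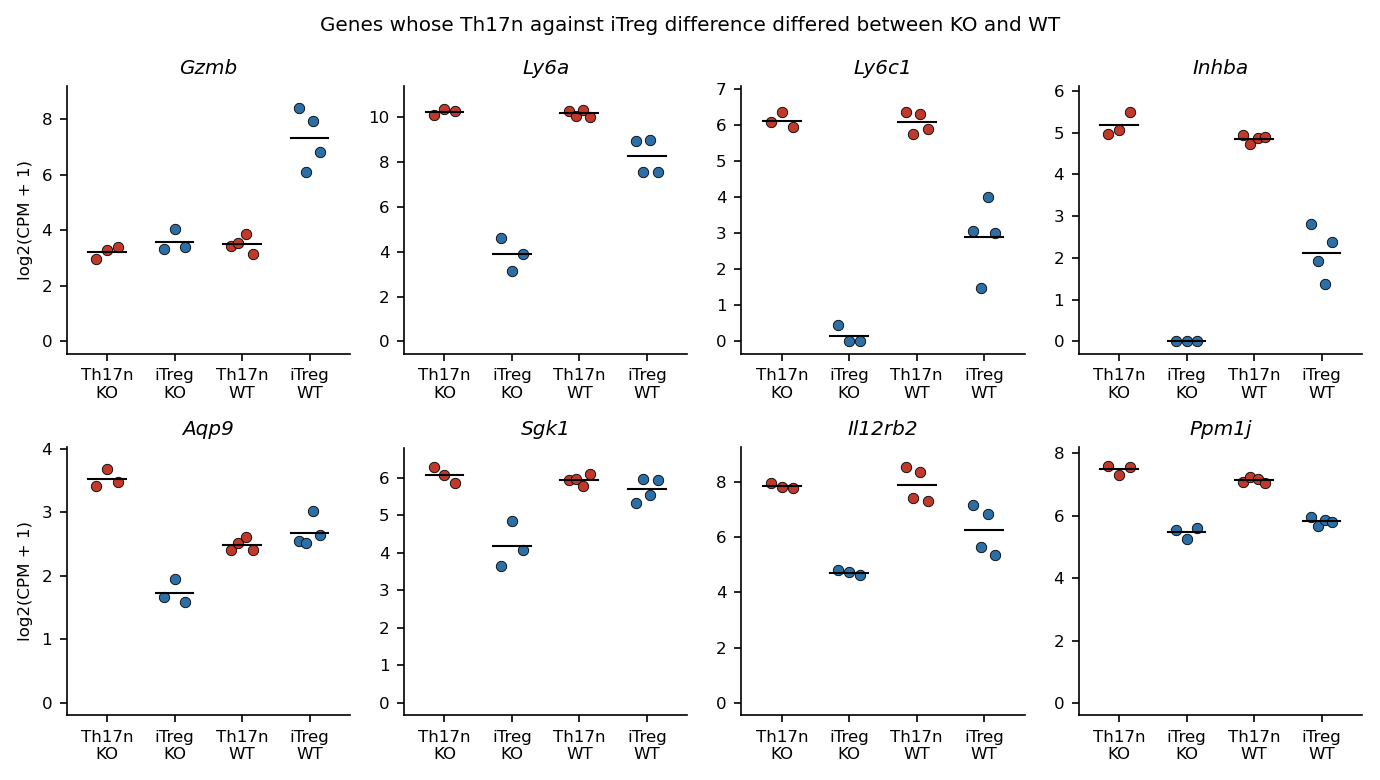
Log2(CPM + 1) per library of the 8 genes whose Th17n against iTreg difference differed between KO and WT, in untreated KO Th17n, KO iTreg, WT Th17n and WT iTreg cells (red Th17n, blue iTreg; lines are group means; the vertical scale differs by gene). KO iTreg libraries lie below WT iTreg libraries in Gzmb, Ly6a, Ly6c1, Inhba, Aqp9, Sgk1, Il12rb2 and Ppm1j.

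With DFMO the contrast within KO was smaller in number: 1220 genes were higher in Th17n (11.1%) and 1436 lower (13.1%), together 24.2% of those tested, and 1915 genes were called with and without DFMO. Those were 72.1% of the calls with DFMO and 45% of the calls without, with 1870 in the same direction. The test of the difference, the change with DFMO minus the change without, called 350 genes with a higher value (3.19%) and 521 with a lower one (4.74%), together 7.93% of those tested. It shares the untreated KO libraries with the contrast described above, so the values are given side by side. The split depended on scaling: on log2(TPM + 1) it was 543 higher and 311 lower, on log2(TPM + 0.1) it was 514 and 228, with the median of all genes at 0.10 and 0.13 against -0.02, and without the untreated iTreg library of animal 3 it was 367 and 342.

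Foxp3 and Nrp1 were less far apart with DFMO. Foxp3 read 34.4, 37.1 and 33.3 CPM in DFMO Th17n and 382, 355 and 318 CPM in DFMO iTreg, against 8.25, 8.36 and 3.78 CPM in untreated Th17n and 259, 343 and 314 CPM in untreated iTreg. Its contrast was -3.33 ± 0.19 with DFMO and -5.58 without, a difference of 2.25 ± 0.35 (edgeR adjusted p = 1.18e-04). Nrp1 changed in the same way (difference 1.78 ± 0.33), with 39.8, 48.7 and 40.2 CPM in DFMO Th17n. Socs3 stood at 309, 278 and 262 CPM in DFMO Th17n and 48.1, 50.3 and 42.1 CPM in DFMO iTreg, so its contrast was 2.59 with DFMO and 4.05 without (difference -1.46 ± 0.16, adjusted p = 1.19e-06). Stat3 (-0.66 ± 0.12) and Irf4 (-0.74 ± 0.16) also had smaller contrasts. Il2ra no longer parted the cultures, at 1125, 1255 and 1179 CPM in DFMO Th17n and 1180.4, 1289 and 1179.7 CPM in DFMO iTreg (difference -0.75 ± 0.09). Ctla4 had the larger contrast with DFMO, 2.03 against 0.93 without (difference 1.10 ± 0.16). For Il17f and Odc1 the difference missed the threshold (edgeR adjusted p = 0.553 for Il17f and 0.933 for Odc1).

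Among the largest differences were contrasts that were smaller with DFMO. Gipr, the receptor of an incretin hormone, read 1.8, 4.21 and 2.74 CPM in DFMO Th17n and 0.297, 0.451 and 0.615 CPM in DFMO iTreg, against 83.4, 94.7 and 95.5 CPM in untreated Th17n and 0, 0 and 0.669 CPM in untreated iTreg (-5.77 ± 1.28, edgeR adjusted p = 0.0043). Crispld2, a secreted protein, stood at 31.1, 36.6 and 37.5 CPM in DFMO Th17n and 12.5, 18.1 and 16.6 CPM in DFMO iTreg, against 226, 244 and 299 CPM in untreated Th17n and 5.07, 4.52 and 6.69 CPM in untreated iTreg (-4.39 ± 0.28, adjusted p = 3.07e-11). The complement gene C3 was at 5.85, 5.69 and 1.68 CPM in DFMO Th17n, against 65.1, 63.7 and 63.8 CPM in untreated Th17n (-3.71 ± 0.50). With DFMO the contrasts of Gipr (2.59) and Crispld2 (1.15) still passed, and that of C3 (0.08) did not. Adm, the vasodilator adrenomedullin, reversed: its contrast was -1.81 with DFMO and 2.35 without. Dapk2 (-5.78 ± 1.08) had a larger negative contrast with DFMO (-7.07) than without (-1.29). It had no count in DFMO Th17n, and Inhba (-5.52 ± 1.48) had none in untreated iTreg, so both sizes depend on the prior count. Without the untreated iTreg library of animal 3 the difference was -8.74 for Gipr. On log2(TPM + 1) the differences of Dapk2 (-0.57) and Inhba (-0.17) did not pass, and that of Inhba was also lost when any of 4 libraries was left out.

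Differences with a higher value included Ccl20, at 51.3, 53.2 and 69.5 CPM in DFMO Th17n and 0, 1.58 and 1.23 CPM in DFMO iTreg, against 9.63, 20.3 and 10.8 CPM in untreated Th17n and 1.45, 2.06 and 1.67 CPM in untreated iTreg (2.95 ± 0.81, edgeR adjusted p = 0.022). For Ccl3 (3.94 ± 0.92), Serpina3g (4.24 ± 1.23), Xaf1 (3.36 ± 0.69) and Tead1 (3.06 ± 0.53) the contrast was negative in both conditions and nearer to 0 with DFMO, where it passed only for Ccl3 and Tead1. The difference for Ccl3 was 6.24 and 3.22 without the untreated Th17n library of animal 1 and of animal 3, and for Tead1 4.69 without that of animal 3. That of Ccl3 was not called without the second of these libraries, nor without the block, and that of Tead1 was not called on log2(TPM + 1). The call of Serpina3g was lost when any of 9 libraries was left out, and that of Ccl20 when any of 5 was. Ccl5 (3.15 ± 0.69), a chemokine of effector cells, had a contrast of 1.49 with DFMO, which did not pass, and -1.66 without, a call lost on log2(TPM + 0.1) and without the untreated iTreg library of animal 3. Its difference was 2.56 without the DFMO Th17n library of animal 2 and 3.74 without the DFMO iTreg library of animal 2, and was not called on log2(TPM + 0.1). By list, 13 of 31 DNA replication genes had a higher value of the difference and 0 a lower one, and the replication genes called lower in Th17n numbered 12 with DFMO and 29 without. In the ATF4 response 7 of 17 had a higher value and 0 a lower one. Asns read 177, 224 and 174 CPM in DFMO Th17n and 115, 179 and 135 CPM in DFMO iTreg, a contrast of 0.43 with DFMO against -0.61 without (difference 1.04 ± 0.14), and Chac1 turned round too, 0.94 with DFMO against -1.23 without. Of 15 IL-2 and STAT5 genes 2 had a higher and 8 a lower value, and of 18 regulatory T cell genes 3 and 7.

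**Figure D5:**
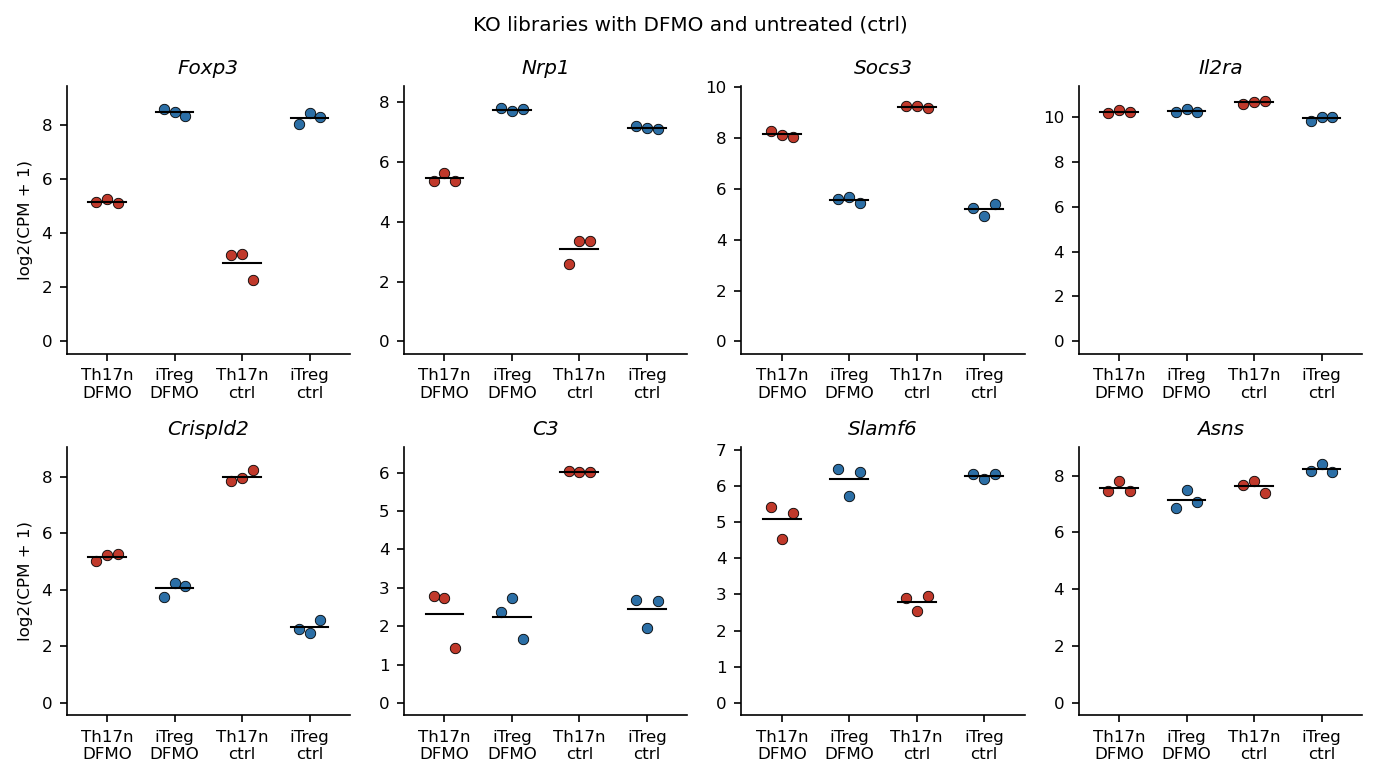
Log2(CPM + 1) per library of 8 genes in KO cells: DFMO Th17n, DFMO iTreg, untreated (ctrl) Th17n and untreated iTreg (red Th17n, blue iTreg; lines are group means; the vertical scale differs by gene). Th17n and iTreg lie closer together with DFMO for Foxp3, Nrp1, Socs3, Il2ra, Crispld2, C3 and Slamf6, and their order is turned for Asns.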

How the data were processed

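The authors deposited estimated counts and TPM for 20891 genes in 28 libraries, made with kallisto on GRCm38, as the submitters' processing notes name them, in a version not given in the sources used here. Full-length libraries were read as pairs of 75 bp, per the labels' protocols. Of the deposited estimated counts, 67.2% were whole within 0.001, and they were rounded before fitting. All columns of the files were used. Use of strand is not stated, which leaves values of overlapping or antisense genes uncertain.

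One quasi-likelihood model was fitted to all 28 libraries in edgeR 4.0.16 (R 4.3.3), with the animal as a block and Th17n, DFMO and their interaction estimated within each genotype, which left 15 residual degrees of freedom. Scaling was by TMM, edgeR's filter by group kept 10985 genes, and p-values were adjusted by Benjamini-Hochberg over all of them. Standard errors come from the quasi-likelihood F. The labels give the animal of every library, so same-numbered libraries are paired by animal, although their deviations from group means correlated at only 0.071, -0.022 and 0.009. Each animal gave 1 library per condition. Counting intervals are exact binomial at 95%, and they and the floor of 3 counts cover counting error only.

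Alternatives were no replicate block, DESeq2 size factors in edgeR, DESeq2 1.42.0, no filter, limma 3.58.1 on log2 of the authors' deposited TPM plus 1 or 0.1, a fit of the groups compared alone, and leaving out each library. The edgeR, DESeq2 and limma fits were also run on simulated counts, limma there on CPM and not TPM, and the outcome is not reported here. Lists of 610 entries (596 matched; 30 pathway and 8 cell type lists) were written from general knowledge. The comparison, its lists and tests were chosen with earlier results of these data known. Named were 16 fixed lineage and target genes, the 12 largest called changes each way with an approved-style symbol, at least 10 CPM in the higher culture and the same direction in all 3 animals, the 6 largest each way for either test of a difference with at least 10 CPM in 1 of the groups, and from each list up to 4 called members of smallest adjusted p and any called against its majority where these were 3 or fewer. Some named genes were left out and are not reported here. Positions are from GENCODE M21, promoters from RefSeq (GRCm38.p6), where 8671 of the tested genes had one. Leaving out each animal in the Kdm6b test was added after the data were seen. Counting intervals, the Kdm6b test and the figures were made in Python 3.11.15 with scipy 1.17.1 and matplotlib 3.10.9.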

Additional observations from a re-analysis of the deposited data

Results flagged for a closer look

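For 8 genes the change of Th17n against iTreg differed between KO and WT by the test of the difference itself. The log2 differences, KO minus WT, were 7.13 for Inhba, 5.58 for Ly6c1, 4.37 for Ly6a, 3.67 for Gzmb, 2.40 for Aqp9, 1.62 for Sgk1, 1.55 for Il12rb2 and 0.72 for Ppm1j. Of these, only Ly6a stayed called in every setting tried. The sizes for Inhba and Ly6c1 depend on the prior count, as KO iTreg held few or no counts of them.

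Among genes whose change in KO differed between DFMO and untreated cultures, those named by size had log2 differences, DFMO minus untreated, of 4.24 for Serpina3g, 3.94 for Ccl3, 3.36 for Xaf1, 3.15 for Ccl5, 3.06 for Tead1 and 2.95 for Ccl20. On the lower side these were -5.78 for Dapk2, -5.77 for Gipr, -5.52 for Inhba, -4.39 for Crispld2, -4.16 for Adm and -3.71 for C3. The calls of Serpina3g, Ccl3, Ccl20 and Inhba among these were lost when some single libraries were left out.

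In the WT groups of 4, which were examined for a library far from the others, 2 of 48 groups had one. The iTreg library of WT animal 2 held 0.988 CPM of Il17a where the other 3 had none, and that of WT animal 3 held 0.263 CPM of Il23r where the other 3 had none. Chance alone picks out about 1 in 20 such groups, but this rate does not hold where 3 libraries have no count. There any count in the remaining library is always picked out.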

How the results depend on the processing

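The 4260 genes called between KO Th17n and iTreg were 3878 without the replicate block, of which 3840 were also called with it, and 3549 to 4251 in the other settings. The KO against WT difference was called at 8 genes with the pairing by animal and at 3 without the replicate block, at 14 in DESeq2, at 97 without the filter on low counts, at 5 on log2(TPM + 0.1) and at 3 in a fit of the groups compared alone. With single libraries left out it ranged from 3 to 10, against 3315 to 3763 for KO Th17n against iTreg and 591 to 752 for the DFMO against untreated difference, which stood at 871 with the replicate block and 648 without. Apart from these counts for KO against WT, the block changed calls at named genes, among them Ccr6, Mtap, Wdr43, Ly6c1, Gzmb, Aqp9, Il12rb2, Ppm1j and Ccl3. No called value of a named gene changed sign in any setting run. Outside leave-one-out, 58 of 1412 repeats of named genes lost their call, and 91 of 1348 did with a library left out; the cause was not tested. For Kdm6b, the 35 splits allow no p under 0.0286. Libraries of 2226914 to 4759290 counts give genes near 1 CPM only a few reads, so folds against iTreg at 0 are lower bounds and no absence is shown.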
